A study of Oryza sativa with 18 samples.

Results

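DNA transposon loci with transcript in the rice flag leaf were described here across 3 genotypes and 2 stages of grain filling. They are the loci whose description in the deposited gene table contains "transposon" but not "retrotransposon" and whose mean reached 2 CPM in 1 or more of the 6 groups. CPM is the raw count of a locus over the total count of its library, times 1000000. By this rule 246 of the 3822 DNA transposon loci in the table were members, out of 55986 loci in all. A count above 0 in any library was found at 847 of the 3822. Since the level in the groups chose the members, their levels are a description.

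DNA transposons are mobile elements that move as DNA, cut out and reinserted by a transposase that the complete element encodes. CACTA (En/Spm), Mutator, Ac/Ds, Pong and Mariner elements are families of them, told apart by their transposases and end repeats, and Pong transposase can move the small element mPing in rice. Plants keep most copies silent through DNA methylation, small RNAs and compact chromatin. Some transposase-derived genes have lost mobility and serve the host, so an annotated transposon locus with transcript need not be a mobile element.

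The study profiled flag leaves of paddy-grown rice (Oryza sativa) by RNA sequencing. The 6 groups were Ospho1;2-Ko1 (Ko1), the overexpression line OsPHO1;2-OE (OE) and wild type (WT), each at 15DAF and at 5DAF with 3 libraries, 18 in all. The labels do not spell out DAF, which is commonly days after flowering. OsPHO1;2 encodes a phosphate exporter, and all groups share tissue, field growth and extraction kit. The labels give 1 line of each kind, and state neither the kind of mutation, nor the promoter of the overexpression construct, nor whether replicates came from separate plants. The p-values therefore cover variation among these libraries, part of which may be technical, and an effect of the mutation cannot be told apart from another feature of the 1 line.

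Total counts ran from 13223554 to 18264909 per library, so that 3 counts stood for 0.164 to 0.227 CPM. The targeted gene OsPHO1;2 (LOC_Os02g56510) had 6.40, 6.28 and 6.30 CPM in Ko1 and 18.5, 4.88 and 31.8 CPM in OE, against 1.84, 2.66 and 3.28 CPM in WT, at 15DAF. At 5DAF it had 3.39, 2.86 and 1.19 CPM in Ko1 and 5.45, 8.26 and 8.43 CPM in OE, against 1.55, 3.22 and 2.41 CPM in WT. Every OE library was above every WT library of its stage, and the Ko1 libraries were not below WT as a group, so its level does not check the label Ko1. All 6 leaf mesophyll markers were read in every group. At 15DAF their library sums were 5917 to 15681 CPM in Ko1, 6787 to 8761 CPM in OE and 8420 to 10050 CPM in WT. At 5DAF the sums were 12504 to 15568 CPM in Ko1, 17360 to 18504 CPM in OE and 12482 to 17646 CPM in WT. Of 46 developing grain genes 18 had no count. The others summed to 25.4 to 30.8 CPM in Ko1 libraries and 16.9 to 21.0 CPM in OE libraries at 15DAF, against 16.7 to 18.7 CPM in WT libraries. At 5DAF they summed to 23.9 to 42.2 CPM in Ko1 and 15.3 to 16.4 CPM in OE, against 15.8 to 29.5 CPM in WT. The part of these genes in the results below was not tested. The library labelled WT 5DAF replicate 3 stood apart from the other WT 5DAF libraries at many loci below. Some counts and sums that use it are also given without it. The WT 5DAF sums of leaf markers, grain genes and transposon classes are given only with it.

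Together the members held 0.640% to 0.819% of the counts of a library. Their sum was 7519 ± 363 CPM in Ko1, 7369 ± 290 CPM in OE and 7532 ± 310 CPM in WT at 15DAF (SD, n = 3 each). At 5DAF it was 7399 ± 689 CPM in Ko1, 6862 ± 413 CPM in OE and 7026 ± 400 CPM in WT (SD, n = 3 each), where WT 5DAF replicates 1 and 2 averaged 6812 CPM. The group means at each stage lay within about the spread of their libraries. In bulk leaf, fewer cells of a type and less RNA per cell cannot be told apart.

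The families were represented unequally. The members were 72 of 2089 CACTA loci (3.45%), 15 of 59 Mutator loci (25.4%), 12 of 109 Pong loci (11%), 5 of 28 Ac/Ds loci (17.9%) and 1 of 40 Mariner loci (2.5%). The remaining 141 members were among 1497 loci described as unclassified transposon protein (9.42%). Summed Pong transcript was 279 ± 19.7 CPM in Ko1 and 199 ± 2.5 CPM in OE at 15DAF, against 198 ± 19.4 CPM in WT (SD, n = 3 each). Summed Mutator transcript was 552 ± 39.1 CPM in Ko1 and 460 ± 13.7 CPM in OE at 15DAF, against 488 ± 12.7 CPM in WT. Summed CACTA transcript was 2418 ± 184 CPM in Ko1 and 2114 ± 16.4 CPM in OE, against 2183 ± 201 CPM in WT, and unclassified loci summed to 4059 ± 161 CPM in Ko1 and 4424 ± 266 CPM in OE, against 4481 ± 73.3 CPM in WT. Ac/Ds loci summed to 187 ± 23.2 CPM in Ko1 and 155 ± 3.69 CPM in OE, against 160 ± 23.3 CPM in WT. The Mariner locus had 23.4 ± 8.86 CPM in Ko1 and 16.4 ± 0.570 CPM in OE, against 21.1 ± 2.13 CPM in WT. Thus the class means lay above WT in Ko1 for every class but the unclassified loci, which lay below. For CACTA, Ac/Ds and Mariner the Ko1 and WT means lay within about the spread of their libraries. At 5DAF Pong loci summed to 243 ± 16.8 CPM in Ko1 and 165 ± 42.4 CPM in OE, against 180.1 ± 57.3 CPM in WT, and unclassified loci to 3929 ± 365 CPM in Ko1 and 4067 ± 84.2 CPM in OE, against 4085 ± 165 CPM in WT. Mutator loci summed to 673 ± 122 CPM in Ko1 and 576 ± 54.4 CPM in OE, against 560 ± 9.33 CPM in WT. CACTA loci summed to 2317 ± 180 CPM in Ko1 and 1891 ± 291 CPM in OE, against 2024 ± 341 CPM in WT. The Pong locus with the highest level, LOC_Os12g12690, had 129.6, 98.8 and 116 CPM in Ko1 and 62.4, 54.5 and 53.8 CPM in OE, against 49.99, 65.6 and 49.9 CPM in WT at 15DAF. These sums were not tested.

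Members carried a gene model identifier of the RAP annotation more often than the other DNA transposon loci did. The table gives one for 187 of 246 members (76.0%), and for 222 of the other 3576 (6.21%). Among all 18186 loci that reached 2 CPM in a group the share was 96.9%. The median genomic span was 3935 bp for members and 3192 bp for the other DNA transposon loci. How reads shared by near-identical copies were counted is not given in the sources used here, so the level of a single copy is uncertain.

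Most members were read in every group. Of the 246, 182 reached 2 CPM in all 6 groups and 18 in only 1, with 17, 12, 12 and 5 in 2, 3, 4 and 5 groups. The 182 had a RAP identifier in 84.1% of cases and the remaining 64 in 53.1%. Among the 182 the highest group mean was a median of 1.60 times the lowest, with quartiles of 1.37 and 2.07, and 133 stayed under 2 times. The ratio was at least 4 for 9 of them and reached 6.96 at LOC_Os06g38890. Members just inside the cut were LOC_Os11g28910 (highest group mean 2.13 CPM), LOC_Os04g16080 (2.15 CPM) and LOC_Os02g02460 (2.16 CPM), and just outside it lay LOC_Os06g12480 (1.95 CPM), LOC_Os09g17920 (1.88 CPM) and LOC_Os04g25100 (1.86 CPM).

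Levels between loci were compared per length, on the deposited FPKM values. The median member had 5.59 FPKM, with quartiles of 1.89 and 11.4 FPKM and a range of 0.12 to 157 FPKM. The 8 members with the highest mean CPM held 23.8% of the CPM of all members. Among these 8, LOC_Os04g55710 (unclassified; chromosome 4, 33161540 to 33164790, positions as the table gives them, here and below, with no build stated) had 190.3 ± 52.2 FPKM in Ko1 and 197 ± 56.9 FPKM in OE at 15DAF, against 249 ± 51.9 FPKM in WT (SD, n = 3 each). At 5DAF it had 127 ± 75.6 FPKM in Ko1 and 49.4 ± 18.8 FPKM in OE, against 127 ± 80.5 FPKM in WT, where replicates 1 and 2 had 74.8 and 86.4 FPKM. Its libraries differed widely within groups. The CACTA locus LOC_Os10g02630 (chromosome 10, 1007586 to 1012944) had 189 ± 1.31 FPKM in Ko1 and 147 ± 9.83 FPKM in OE at 15DAF, against 137 ± 28.9 FPKM in WT. The Mutator locus LOC_Os12g12360 (chromosome 12, 6799196 to 6806977) had 113 ± 14 FPKM in Ko1 and 88.6 ± 1.37 FPKM in OE at 15DAF, against 91.7 ± 5.82 FPKM in WT. At 5DAF it was at 164 ± 46.0 FPKM in Ko1 and 146 ± 11.2 FPKM in OE, against 130 ± 14.4 FPKM in WT, where replicates 1 and 2 averaged 132 FPKM.

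**Figure D1:**
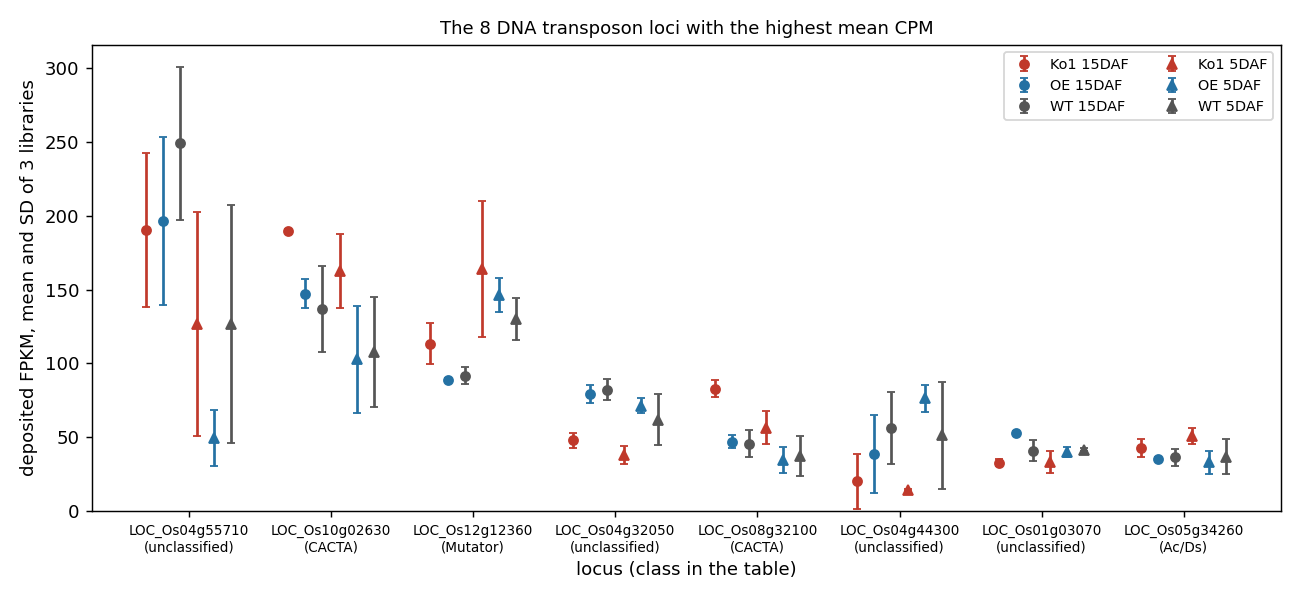
Deposited FPKM of the 8 members with the highest mean CPM (vertical axis, mean and SD of 3 libraries), by locus (horizontal axis) and group. Circles are 15DAF and triangles 5DAF. LOC_Os04g32050 lies at 48.0 FPKM in Ko1 and 79.2 FPKM in OE at 15DAF, against 82.3 FPKM in WT.

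Some members were read in one genotype and were near zero in another at the same stage. Read here is a group mean of at least 2 CPM and near zero a group mean under 0.1 CPM. The pattern was found at 11 members, namely 4 CACTA, 2 Pong, 1 Mutator and 4 unclassified loci. Of these 11, 2 carry a RAP identifier, and none of the 8 that separate Ko1 and WT at 15DAF does. Because these loci were chosen on the values, they carry no test in the groups that chose them.

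At 15DAF, 7 loci were read in WT and had 0 counts in all 3 Ko1 libraries, which allows up to 3 counts over the group. The same on/off pattern held at 29 of all 18186 loci with 2 CPM in a group (0.159%). The CACTA locus LOC_Os10g20280 (chromosome 10, 10197499 to 10201059) had 0 counts in every Ko1 and OE library, against 27.0, 33.5 and 24.7 CPM in WT. The Mutator locus LOC_Os08g33550 (chromosome 8, 20948959 to 20951695) also had 0 counts in every Ko1 and OE library, against 24.4, 26.0 and 26.8 CPM in WT. The CACTA locus LOC_Os07g05850 (chromosome 7, 2810205 to 2813892) had 0 counts in Ko1 and 7.67, 0.264 and 0 CPM in OE, against 21.2, 27.2 and 19.9 CPM in WT. With 3 counts taken as the floor of the whole group, the levels in Ko1 were at least 415-fold, 381-fold and 332-fold lower at these loci. WT libraries lay above all Ko1 and OE libraries at each of them.

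The other 4 of these 7 loci were read at lower levels in WT. The Pong locus LOC_Os10g41350 (chromosome 10, 22224672 to 22227639) had 0 counts in Ko1 and 1.17, 0 and 0 CPM in OE, against 3.96, 4.41 and 4.87 CPM in WT at 15DAF. The Pong locus LOC_Os01g60590 (chromosome 1, 35025603 to 35027670) had 0 counts in Ko1 and 1.96, 0 and 0 CPM in OE, against 4.70, 2.87 and 3.78 CPM in WT. OE 15DAF replicate 1 was thus the OE library that read both Pong loci. The CACTA locus LOC_Os05g36230 (chromosome 5, 21479234 to 21481853) had 0 counts in Ko1 and 0.368, 0 and 0 CPM in OE, against 2.20, 5.25 and 3.01 CPM in WT. The CACTA locus LOC_Os08g27980 (chromosome 8, 17047724 to 17054053) had 0 counts in Ko1 and in OE, against 1.69, 2.31 and 3.12 CPM in WT. Their levels in Ko1 were at least 65.8-fold, 55.6-fold, 51.1-fold and 36.1-fold lower than in WT, in that order.

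In the other direction 1 member was read in Ko1 and absent from the counts of WT at 15DAF, where 30 of all loci had the pattern (0.165%). LOC_Os10g14230 (unclassified; chromosome 10, 7712328 to 7714713) had 22.4, 31.9 and 4.03 CPM in Ko1, against 0 counts in every OE and WT library at 15DAF. Its level in Ko1 was at least 287-fold higher than in WT, and the Ko1 libraries themselves spread from 4.03 to 31.9 CPM.

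**Figure D2:**
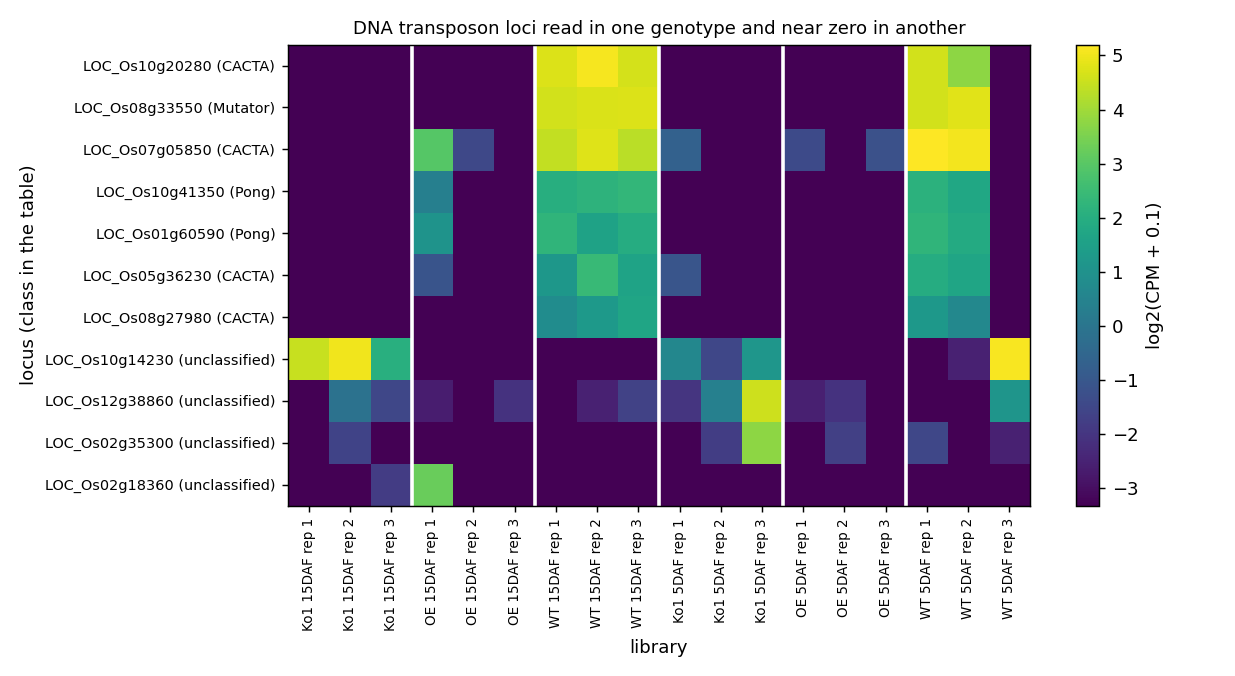
Level of the 11 loci that were read in one genotype and near zero in another (rows), as log2(CPM + 0.1), in each of the 18 libraries (columns). The 7 loci at the top have 0 counts in all Ko1 15DAF libraries and signal in all WT 15DAF libraries, and the last column, the library labelled WT 5DAF replicate 3, has none of their signal.

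At 5DAF the same loci split the WT libraries. WT 5DAF replicates 1 and 2 read all 7 loci at 1 CPM or more, and the library labelled WT 5DAF replicate 3 had 0 counts at each of them. LOC_Os10g20280 had 0 counts in all Ko1 and OE libraries at 5DAF, against 24.6, 13.4 and 0 CPM in WT. LOC_Os08g33550 had 0 counts in all Ko1 and OE libraries, against 24.3, 27.8 and 0 CPM in WT. LOC_Os07g05850 had 0.527, 0 and 0 CPM in Ko1 and 0.280, 0 and 0.337 CPM in OE, against 36.7, 33.1 and 0 CPM in WT. The locus of the opposite pattern behaved likewise, since LOC_Os10g14230 had 1.43, 0.254 and 2.15 CPM in Ko1 and 0 counts in OE, against 0, 0.0701 and 34.2 CPM in WT. The highest of those WT values, and of all 18 libraries, was in the library labelled WT 5DAF replicate 3.

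The library was set beside the others at every locus, transposon or not, with the pattern at 15DAF. Of the 29 loci read in WT and near zero in Ko1 at 15DAF, WT 5DAF replicates 1 and 2 read 28 and 27 at 1 CPM or more and the library labelled replicate 3 read 1. The Ko1 5DAF libraries read 0, 0 and 1. Of the 30 loci with the opposite pattern, the Ko1 5DAF libraries read 11, 10 and 17, against 1, 1 and 11 in the WT 5DAF libraries. At the 32 members called between Ko1 and WT at 15DAF, described below, the library labelled WT 5DAF replicate 3 was nearer to the Ko1 5DAF mean than to the other WT 5DAF libraries at 26, and replicates 1 and 2 at 3 each (on log2(CPM + 0.5)). This count was made after the library had been seen to stand apart. On these counts the library went against its label, and the reason was not tested.

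**Figure D3:**
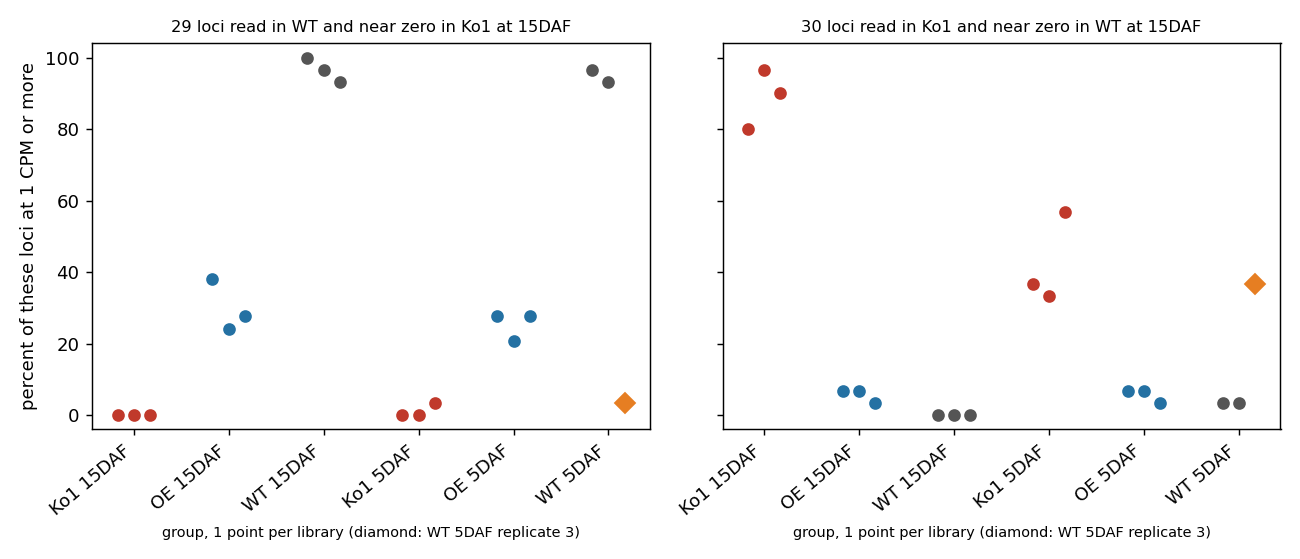
Percent of loci at 1 CPM or more in each library (vertical axis), by group (horizontal axis), for the 29 loci of all kinds read in WT and near zero in Ko1 at 15DAF (left) and the 30 of the opposite pattern (right). Each point is a library, and the diamond is the library labelled WT 5DAF replicate 3, which reads 1 of 29 and 11 of 30.

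The 15DAF libraries chose these loci, so the 5DAF libraries give a test that the choice did not use. In a fit of the 9 libraries at 5DAF, 1 of the 8 Ko1 and WT loci passed the filter on low counts and edgeR called 0 of the 8. DESeq2 gave no adjusted p for any of them, and none had an unadjusted p under 0.05. The percentage of all genes called in that fit was 0.0%. Loci that did not pass the filter could not be called, so nothing is read from the count of 0 of the 8. The locus tested, LOC_Os10g14230, was at log2 −3.13 (SE 1.79, edgeR adjusted p = 0.454). Its direction rested on the library labelled WT 5DAF replicate 3, and without that library it was at log2 4.77 (SE 1.52). In the fit of all 18 libraries the 8 loci were tested, 7 with an unadjusted p under 0.05 and 0 called by edgeR after adjustment. Without any 1 Ko1 5DAF library all 8 were tested, 6 or 7 had an unadjusted p under 0.05 and 0 were called. In both kinds of fit the loci read in WT passed the filter through WT libraries where they were high. Those counts are descriptions and no test. When the 5DAF fit left out WT 5DAF replicate 3, all 8 were tested and 6 were called, while 5.28% of all genes were called. That library was left out for its values at these very loci, and the loci read in WT then passed the filter on low counts through the other WT libraries. The count is therefore a description of those libraries and no test.

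By group means OE shared part of the WT-read pattern. Of the 7 loci read in WT and near zero in Ko1 at 15DAF, OE 15DAF replicate 1 read 3 at 1 CPM or more. OE 15DAF replicates 2 and 3 and every OE 5DAF library read 0 of the 7 at that level. LOC_Os08g33550, LOC_Os10g20280 and LOC_Os08g27980 were read in WT and near zero in OE at 15DAF, as were 13 of all loci (0.0715%). Tested at 5DAF with the 1 locus read in OE and near zero in WT, none of these 4 passed the filter on low counts, so edgeR called 0 and gave no p, and DESeq2 gave none either, while edgeR called 0.0155% of all genes there. Without any 1 OE 5DAF library 3 of the 4 were tested and 0 called, having passed the filter through WT libraries where they were high. With the library labelled WT 5DAF replicate 3 left out, 3 were tested and 2 called, while 0.141% of all genes were called, which is again a description and no test.

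Directly at 5DAF, 4 members were read in WT and near zero in Ko1 (0.104% of all loci), 6 were read in WT and near zero in OE (0.137%), and 0 had the reverse pattern in either pair. The share of all loci with the reverse pattern was 0.0275% for Ko1 and 0.0165% for OE. One of the 6, LOC_Os10g14230, was read in the library labelled WT 5DAF replicate 3 and under the floor of 3 counts in the other WT libraries. LOC_Os10g41350 had 0 counts in all Ko1 and OE libraries at 5DAF, against 4.34, 3.29 and 0 CPM in WT. LOC_Os01g60590 had 0 counts in the same libraries, against 4.71, 3.57 and 0 CPM in WT. Without the library labelled WT 5DAF replicate 3 the counts were 6 for Ko1 and 6 for OE.

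The last 3 of the 11 loci were read mainly in a single library. LOC_Os02g18360 (chromosome 2, 10681486 to 10688094) had 9.33, 0 and 0 CPM in OE at 15DAF, and 3 counts in all other libraries together. LOC_Os02g35300 (chromosome 2, 21225043 to 21228732) had 0, 0.191 and 13.4 CPM in Ko1 and 0, 0.208 and 0 CPM in OE, against 0.248, 0 and 0.0708 CPM in WT, at 5DAF. LOC_Os12g38860 (chromosome 12, 23885347 to 23888965) had 0.151, 1.21 and 23.2 CPM in Ko1 and 0.0699, 0.139 and 0 CPM in OE, against 0, 0 and 2.05 CPM in WT, at 5DAF. Ko1 5DAF replicate 3 alone placed the last pair of loci among those read in Ko1 and near zero in OE, and without it that count was 0. All loci with that pattern were 0.159% of those with 2 CPM in a group, and 0.022% had the reverse, which 0 members had. OE 15DAF replicate 1 alone placed LOC_Os02g18360 and LOC_Os07g05850 among the loci read in OE and near zero in Ko1 at 15DAF, a pattern of 0.11% of all loci. LOC_Os10g14230 alone was read in Ko1 and near zero in OE at 15DAF, as were 0.11% of all loci.

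The 11 loci lay on chromosomes 1, 2, 5, 7, 8, 10 and 12, and the closest pair, LOC_Os10g14230 and LOC_Os10g20280, was 2482786 bp apart. For each locus and pair of genotypes, the 5 nearest loci on either side that reached 2 CPM in a group were examined for the same pattern. Counted again for each pair and stage, 6 of 270 such neighbours shared it, and these were the same 2 genes, at 2 positions. The patterns examined held at 0.0715% to 0.165% of all 18186 loci with 2 CPM in a group. The share among neighbours of all loci with these patterns is not given here, so nothing is read from the 6. LOC_Os05g36240 (expressed protein; chromosome 5, 21482123 to 21485145), the next gene to LOC_Os05g36230, had 0 counts in Ko1 and 6.87, 0 and 0 CPM in OE, against 19.7, 19.7 and 13.2 CPM in WT, at 15DAF. LOC_Os08g33580 (zinc knuckle protein; chromosome 8, 20964843 to 20967362), near LOC_Os08g33550, had 0 counts in Ko1 and OE, against 10.7, 9.32 and 8.65 CPM in WT, at 15DAF. At 5DAF these genes had 0.0708 and 0 CPM in the library labelled WT 5DAF replicate 3, like the transposon locus beside each.

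Across all members, edgeR's quasi-likelihood test was run over 20437 genes, of which 244 were members. LOC_Os02g18360 and LOC_Os02g35300, with 155 and 195 counts in total, did not pass the filter. Between Ko1 and WT at 15DAF, 17 members were higher and 15 lower in Ko1 at an adjusted p under 0.05, which is 13.1% of those tested, while 11% of all genes were called, 6.53% higher and 4.43% lower. The rule used these group levels, so nothing is read from that share. The median log2 fold change was −0.03 for members and 0.01 for all genes. Of the 32, 8 were the loci described above and 24 were not on/off, 16 higher and 8 lower. The count was 9 to 18 in 5 of the leave-one-out fits of this contrast, with 18 and 15 without Ko1 15DAF replicates 1 and 3 and with 10, 11 and 9 without WT 15DAF replicates 1, 2 and 3. Of the 24 that were not on/off, 5 were called in every leave-one-out fit. Of the 32, 12 reached 2 CPM in no group on the lower side of the comparison (among OE and WT for those higher in Ko1, among Ko1 for those lower), 5 higher and 7 lower in Ko1. Such members passed the 2 CPM rule through the higher side alone, and their values are given without a test. LOC_Os10g14230 is not counted among the 12, since its WT 5DAF mean was 11.4 CPM. That mean came from the library labelled WT 5DAF replicate 3.

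**Figure D4:**
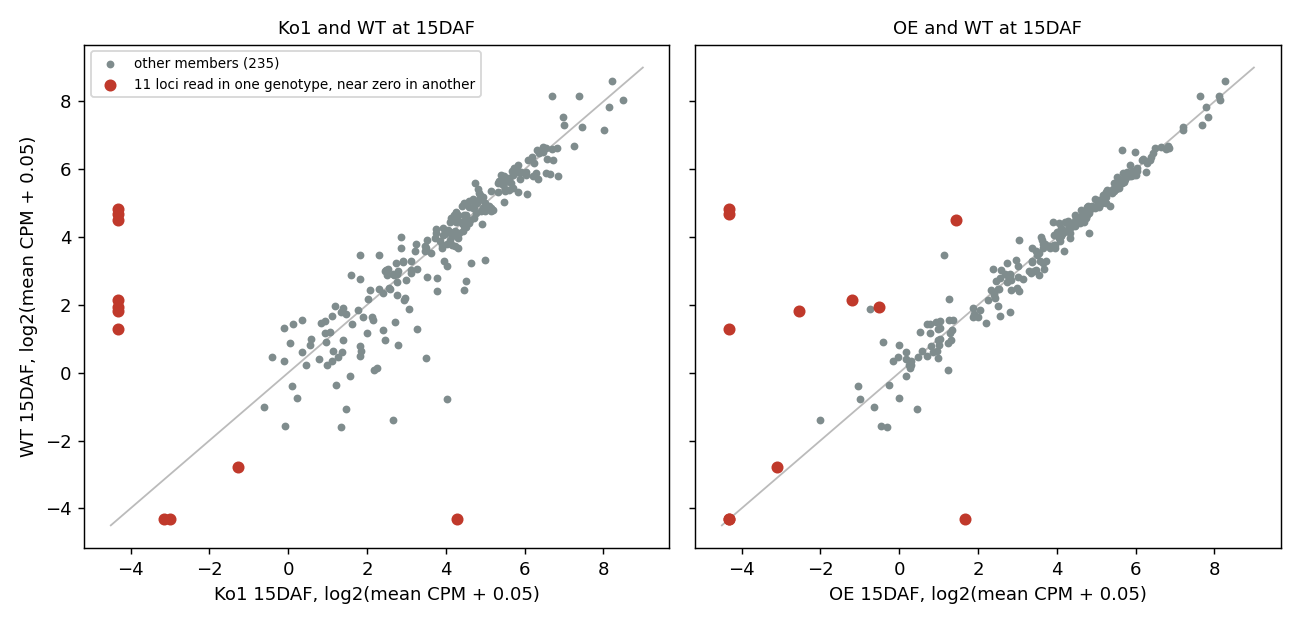
Mean level of each of the 246 members at 15DAF in Ko1 (left) or OE (right) on the horizontal axis, against WT on the vertical axis, as log2(mean CPM + 0.05). The line marks equal levels, and the 11 loci read in one genotype and near zero in another are in red. The 7 loci with 0 counts in Ko1 lie along the left edge of the Ko1 panel.

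The 5 members whose call held in every leave-one-out fit were chosen after their values were seen. LOC_Os03g25150 (unclassified; chromosome 3, 14381298 to 14387811) had 11.1, 17.7 and 4.79 CPM in Ko1 and 1.60, 1.71 and 2.51 CPM in OE, against 1.03, 1.68 and 1.20 CPM in WT, at 15DAF (log2 3.08, SE 0.561, edgeR adjusted p = 0.00304). The Mutator locus LOC_Os12g42630 (chromosome 12, 26498183 to 26499349) had 7.52, 4.92 and 8.25 CPM in Ko1 and 1.47, 2.64 and 1.76 CPM in OE, against 1.84, 1.68 and 1.64 CPM in WT (log2 1.98, SE 0.387, edgeR adjusted p = 0.00492). All Ko1 libraries lay above all OE and WT libraries at both loci. At 5DAF LOC_Os12g42630 had 6.85, 6.36 and 10.1 CPM in Ko1 and 2.94, 2.36 and 1.28 CPM in OE, against 2.79, 2.38 and 6.87 CPM in WT, where 6.87 was the library labelled WT 5DAF replicate 3.

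LOC_Os07g01214 (unclassified; chromosome 7, 122255 to 128031) had 14.8, 34.8 and 18.3 CPM in Ko1 and 4.72, 7.32 and 4.41 CPM in OE, against 7.27, 6.31 and 5.80 CPM in WT, at 15DAF (log2 1.79, SE 0.388, edgeR adjusted p = 0.00891). LOC_Os10g37110 (unclassified; chromosome 10, 19858612 to 19860691) had 24.1, 50.8 and 20.3 CPM in Ko1 and 7.42, 10.6 and 5.36 CPM in OE, against 10.3, 9.88 and 10.02 CPM in WT (log2 1.64, SE 0.365, edgeR adjusted p = 0.0101). Ko1 15DAF replicate 2 was the highest library at both. LOC_Os09g32380 (unclassified; chromosome 9, 19335531 to 19339472) fell in Ko1, with 28.4, 25.3 and 25.8 CPM in Ko1 and 41.1, 51.4 and 38.7 CPM in OE, against 47.6, 44.4 and 52.0 CPM in WT (log2 −0.87, SE 0.159, edgeR adjusted p = 0.00296). At 5DAF it had 32.1, 35.9 and 31.6 CPM in Ko1 and 51.7, 46.1 and 50.9 CPM in OE, against 43.7, 50.9 and 39.7 CPM in WT, and the Ko1 libraries were again below all others.

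LOC_Os03g18060 (unclassified; chromosome 3, 10062717 to 10071657) had 9.84, 17.6 and 21.3 CPM in Ko1 and 0.614, 0.594 and 0.136 CPM in OE, against 1.03, 0.140 and 0.438 CPM in WT, at 15DAF. LOC_Os01g39890 (unclassified) had 1.06, 15.3 and 2.65 CPM in Ko1 and 0.0614, 0.132 and 0.407 CPM in OE, against 0, 0.561 and 0.438 CPM in WT. Both reached 2 CPM only in Ko1 groups, and at LOC_Os01g39890 Ko1 15DAF replicate 2 lay far above the other Ko1 libraries of its stage. Among those lower in Ko1 was the CACTA locus LOC_Os10g04290 (chromosome 10, 2018955 to 2032385), with 2.77, 4.31 and 1.89 CPM in Ko1 and 11.4, 12.6 and 11.3 CPM in OE, against 6.46, 8.34 and 7.23 CPM in WT (log2 −1.31, SE 0.341, edgeR adjusted p = 0.0218). That call ended without Ko1 15DAF replicates 1 or 3 (−1.24 and −1.05) or without WT 15DAF replicates 1, 2 or 3 (−1.39, −1.21 and −1.30), and the Ko1 libraries lay below all WT and OE libraries.

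Between Ko1 and WT at 5DAF edgeR called 0 members, with 64 at an unadjusted p under 0.05 and 13 called by DESeq2. Over all genes edgeR called 0.0147% (0.00489% higher and 0.00979% lower) and DESeq2 3.8%. With WT 5DAF replicate 3 left out, edgeR called 50 members, 23 higher and 27 lower in Ko1, and 13.4% of all genes (6.0% higher and 7.41% lower), with the library chosen for its values as above. For OE against WT edgeR called 0 members at 15DAF, with 15 at an unadjusted p under 0.05 and 2 called by DESeq2, while it called 0.0245% of all genes (0.0196% higher and 0.00489% lower) and DESeq2 0.13%. At 5DAF it also called 0, with 28 at an unadjusted p under 0.05 and 2 called by DESeq2, while it called 0.0391% of all genes (0.0196% higher and 0.0196% lower) and DESeq2 0.46%. Without that library 3 members were called at each stage for OE, while 0.139% of all genes were called at 15DAF and 0.182% at 5DAF. The comparisons with WT share the WT libraries.

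Between the stages members were called in every genotype, and the comparisons of 15DAF with 5DAF share no library between genotypes. They come from 1 fit of all 18 libraries and share its estimate of the spread, so their calls are not independent. In Ko1 15 members were higher and 16 lower at 15DAF, with 20.1% of all genes called (10.5% higher and 9.58% lower). In OE 24 were higher and 34 lower, with 26.7% of all genes called (13.1% higher and 13.6% lower). In WT 13 were higher and 20 lower, with 16.7% of all genes called (7.57% higher and 9.15% lower). Those calls were 12.7%, 23.8% and 13.5% of the 244 members tested. Each share was below that of all genes in the same genotype, so nothing is read from the counts. Without the library labelled WT 5DAF replicate 3, the WT calls were 9 higher and 17 lower, with 14.9% of all genes called (6.27% higher and 8.63% lower). Members that reached 2 CPM in no group of the lower stage made up 9 of the 31 Ko1 calls, 8 of the 58 OE calls and 6 of the 33 WT calls. Without Ko1 15DAF replicate 3 the Ko1 count was 13, without WT 15DAF replicate 2 the WT count was 11, and without OE 15DAF replicate 1 the OE count was 38. In the fits that left out 1 library of a contrast, the counts also moved by over 1.5 times without Ko1 5DAF replicates 2 or 3 (19 and 20), WT 5DAF replicate 1 (21) and WT 15DAF replicates 1 or 3 (12 and 21). By class, the OE calls were 10 higher and 12 lower of 72 CACTA loci, 1 higher of 12 Pong loci, 1 lower of 15 Mutator loci and 13 higher and 21 lower of 139 unclassified loci.

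Of 73 members called between the stages in any genotype, 13 were called in all 3, with 6 higher and 7 lower at 15DAF and 0 in opposite directions. They are 41.9% of the Ko1 calls, 22.4% of the OE calls and 39.4% of the WT calls. The share of all genes called in all 3 genotypes is not given here, so nothing is read from this overlap. Fits of only the groups compared kept 2 of the 13. Of the 13, 4 reached 2 CPM in no group of the lower stage, and these are given below as values without a test. Leaving out 1 library in turn kept 5 to 12 of the 13, and 1 was kept in every such fit, LOC_Os05g25600. That locus (unclassified; chromosome 5, 14879436 to 14886369) had 5.41, 8.62 and 11.9 CPM in Ko1 at 15DAF, against 3.61, 2.48 and 0.667 CPM at 5DAF (log2 1.92, SE 0.477, edgeR adjusted p = 0.00823), a call that ended in the fit of only those groups (log2 1.91, edgeR adjusted p = 0.0729). In OE it had 9.39, 10.8 and 10.2 CPM at 15DAF, against 1.61, 2.71 and 0.944 CPM at 5DAF (log2 2.33, SE 0.486, edgeR adjusted p = 0.00172). In WT it had 8.29, 9.25 and 5.31 CPM at 15DAF, against 1.30, 0.911 and 1.98 CPM at 5DAF (log2 2.36, SE 0.493, edgeR adjusted p = 0.00329). The stages did not overlap in any genotype.

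LOC_Os05g48150 (unclassified; chromosome 5, 27602412 to 27605498) was almost silent at 5DAF. It had 5.21, 4.01 and 5.04 CPM in Ko1 at 15DAF, against 0.0753, 0 and 0 CPM at 5DAF. In OE it had 0.982, 1.25 and 1.22 CPM at 15DAF, against 0, 0 and 0.0674 CPM at 5DAF. In WT it had 1.47, 1.05 and 0.657 CPM at 15DAF, against 0.372, 0.0701 and 0.212 CPM at 5DAF. All 15DAF libraries were above all 5DAF libraries of the same genotype, and Ko1 at 15DAF was the one group with 2 CPM.

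The CACTA locus LOC_Os02g26190 (chromosome 2, 15374305 to 15389963) had 4.69, 4.31 and 3.09 CPM in Ko1 at 15DAF, against 0.753, 0.318 and 0 CPM at 5DAF. In OE it had 2.94, 2.31 and 1.83 CPM at 15DAF, against 0.0699, 0.555 and 0.270 CPM at 5DAF. In WT it had 6.46, 2.45 and 4.54 CPM at 15DAF, against 0.124, 0.210 and 1.20 CPM at 5DAF. The 15DAF groups alone reached 2 CPM, and the stages did not overlap in any genotype. LOC_Os04g51150 (unclassified; chromosome 4, 30287153 to 30289864) rose by 1.16 log2 units in Ko1, 2.14 in OE and 1.26 in WT (edgeR adjusted p = 0.0124, 0.000106 and 0.00979), and its Ko1 call ended without Ko1 15DAF replicate 3 (0.90). Its WT call ended in the fit of only the groups compared (edgeR adjusted p = 0.0540). LOC_Os04g51160, which starts 1597 bp after the end of LOC_Os04g51150, had 9.08, 15.1 and 6.78 CPM in OE at 15DAF, against 1.75, 0.764 and 0.270 CPM at 5DAF (log2 3.28, SE 0.646, edgeR adjusted p = 0.00109). This was the only pair of members under 20000 bp apart in which both were called in the same comparison.

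Among members lower at 15DAF, LOC_Os12g42190 (unclassified; chromosome 12, 26155053 to 26158753) had 1.06, 1.06 and 0.567 CPM in Ko1 at 15DAF, against 3.09, 2.16 and 6.37 CPM at 5DAF. In OE it had 0.368, 0.660 and 1.02 CPM at 15DAF, against 3.43, 3.61 and 3.44 CPM at 5DAF. In WT it had 0.587, 0 and 0.274 CPM at 15DAF, against 4.53, 3.36 and 4.89 CPM at 5DAF. The stages did not overlap, and the 5DAF groups alone reached 2 CPM. LOC_Os01g31890 (unclassified; chromosome 1, 17470274 to 17471520) likewise reached 2 CPM in the 5DAF groups alone. It had 1.12, 2.04 and 0.504 CPM in Ko1 at 15DAF, against 4.97, 5.08 and 3.63 CPM at 5DAF. In OE it had 1.47, 0.726 and 1.02 CPM at 15DAF, against 5.80, 7.71 and 8.30 CPM at 5DAF. In WT it had 0.881, 0.911 and 2.68 CPM at 15DAF, against 5.46, 5.68 and 3.26 CPM at 5DAF. In OE the CACTA locus LOC_Os01g56270 (chromosome 1, 32408275 to 32413635) had 16.1, 13.6 and 15.3 CPM at 15DAF, against 51.5, 46.1 and 38.1 CPM at 5DAF (log2 −1.80, SE 0.263, edgeR adjusted p = 8.02e-05).

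**Figure D5:**
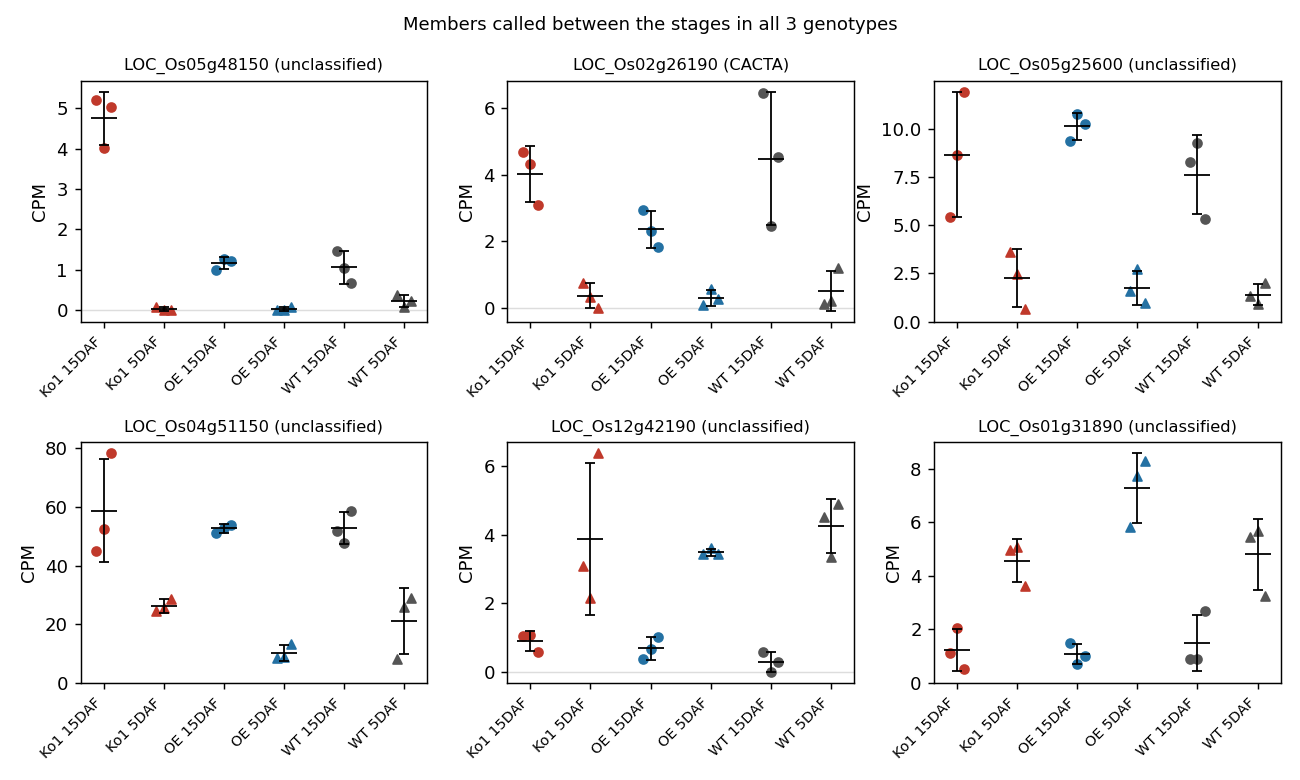
Level in CPM (vertical axis) of 6 of the 13 members called between the stages in all 3 genotypes, by genotype and stage (horizontal axis). Points are libraries, circles 15DAF and triangles 5DAF, and bars give the mean and SD of 3 libraries. LOC_Os05g48150 averages 4.75 CPM in Ko1 at 15DAF and 0.0251 CPM at 5DAF. LOC_Os05g48150, LOC_Os02g26190, LOC_Os12g42190 and LOC_Os01g31890 reached 2 CPM in no group of the lower stage, and are shown as values without a test.

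Genes of the machinery that keeps transposons silent were listed by rice locus, together with DNA demethylation genes, which act against DNA methylation. Of 21 listed, 18 had a matching description in the table, and 15 of these were tested. The demethylation genes ROS1a, DNG701 and ROS1d are among the 15, so the counts and the median cover both kinds of gene. Between Ko1 and WT at 15DAF 1 of the 15 was higher and 2 lower in Ko1, and 5 had an unadjusted p under 0.05. The median log2 fold change was −0.13. DESeq2 called 5. Over all genes edgeR called 11% there, 6.53% higher and 4.43% lower, so nothing is read from the count. NRPD1a (LOC_Os04g48370), a subunit of the polymerase that makes precursors of silencing small RNAs, had 29.2 ± 3.04 CPM in Ko1 and 17 ± 1.70 CPM in OE, against 12.4 ± 3.69 CPM in WT (SD, n = 3 each; log2 1.22, SE 0.303, edgeR adjusted p = 0.0179). DDM1b (LOC_Os03g51230), a chromatin remodeller needed for DNA methylation in plants, had 2.48 ± 1.41 CPM in Ko1 and 5.96 ± 1.36 CPM in OE, against 6.57 ± 1.85 CPM in WT (log2 −1.43, SE 0.417, edgeR adjusted p = 0.0366). AGO4a (LOC_Os01g16870), which binds silencing small RNAs, had 117 ± 25.7 CPM in Ko1 and 209 ± 7.34 CPM in OE, against 175 ± 13.4 CPM in WT (log2 −0.60, SE 0.170, edgeR adjusted p = 0.0332). Over the leave-one-out fits the NRPD1a call held in 4 of 7 (log2 1.04 to 1.46), ending without Ko1 15DAF replicate 3 or WT 15DAF replicates 1 or 3. Each of the other 2 calls held in 2 of 7 and was lost on leaving out Ko1 15DAF replicate 1 or 3 or any 1 WT 15DAF library, and both ended in the fit of only the groups compared (log2 −1.42 and −0.59). In the leave-one-out fits that lost it, DDM1b (LOC_Os03g51230) was at log2 −1.58 to −1.14 and AGO4a (LOC_Os01g16870) at −0.62 to −0.48.

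Of the same 15 genes edgeR called 0 for OE against WT at either stage, 0 for Ko1 against WT at 5DAF and 0 between the stages in WT. Over all genes it called 0.0391% for OE at 5DAF, 0.0245% at 15DAF, 0.0147% for Ko1 at 5DAF and 16.7% between the stages in WT. Among the 15 genes the counts at an unadjusted p under 0.05 were 0 and 0 for OE, 2 for Ko1 and 1 for WT, and DESeq2 called 0 in each. When WT 5DAF replicate 3 was left out, edgeR called 1 for Ko1 against WT at 5DAF, AGO4a, and 0 in the other comparisons named here. Between the stages NRPD1a rose by 1.62 log2 units in Ko1 (edgeR adjusted p = 0.00114) and by 1.19 in OE (edgeR adjusted p = 0.00824), both in all 7 leave-one-out fits. In WT it had log2 0.60 with an edgeR adjusted p = 0.206. MET1b (LOC_Os07g08500), a maintenance DNA methyltransferase, fell by 1.45 log2 units between the stages in Ko1 (edgeR adjusted p = 0.0164), a call that ended without Ko1 5DAF replicate 2 or Ko1 15DAF replicates 2 or 3 (−1.41, −1.30 and −1.43).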

How the data were processed

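The comparisons rest on the deposited raw counts per locus and library, and FPKM values in the same table, both named in the file headers, served for levels between loci. FPKM implied the same locus length in every library, with a largest ratio of 1.00004 over 14683 genes. The submitters' processing notes name Bowtie 0.12.2 and mm8, a mouse build, although the loci are rice loci. No label or header states the rice build, annotation release, counting tool or strand use, so antisense and overlapping transcripts cannot be told apart from a listed locus.

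edgeR 4.0.16 fitted 6 group means over 18 libraries after filterByExpr and TMM, with quasi-likelihood tests, adjusted by Benjamini-Hochberg over 20437 genes at 0.05. In counts simulated for Ko1 against WT at 15DAF over 20437 genes, edgeR recovered 28 of 100 genes changed by 1 log2 unit and 79 of 100 changed by 2, with 7 false calls. A 5DAF fit of 9 libraries tested loci chosen at 15DAF. Tried beside it were no filter, RLE size factors, DESeq2 1.42.0, a replicate block, fewer groups, other CPM limits and each library left out. Folds against 0 counts use a floor of 3 counts over the group, which covers counting error only.

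The members, the lists and the tests were chosen with earlier results of these data known. Named by rule were the on/off loci with the highest level in the read group, the 8 members highest in mean, the 3 highest and 3 lowest called members per comparison, members next to the 2 CPM limit and called silencing genes, and not all of these are printed. LOC_Os12g12690, LOC_Os06g38890, the members called in all 3 genotypes and the neighbouring genes were chosen after their values were seen. No sequence is printed.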

Additional observations from a re-analysis of the deposited data

How the results depend on the processing

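The number of members was 283 at a minimum of 1 CPM, 202 at 5 CPM and 240 to 249 without any 1 library. Requiring 5 CPM in the read group left 4, 2 and 1 on/off loci at 15DAF for Ko1 and WT, OE and WT, and Ko1 and OE, against 8, 4 and 3 at 2 CPM. At 5DAF it left 2, 3 and 1, against 4, 6 and 2. A near-zero limit of 0.2 CPM gave 7 for Ko1 and WT at 5DAF, and requiring 0 counts gave 0 for Ko1 and OE there. Leaving out 1 library gave 1 to 6 on/off loci for Ko1 and OE at 15DAF and 0 to 2 at 5DAF. For OE and WT it gave 4 to 6 at 15DAF. At 5DAF it gave 3 to 7 for OE and WT, the lowest without WT 5DAF replicate 1. The 8 on/off loci of Ko1 and WT at 15DAF were 8 in every fit without 1 library.

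With no filter on low counts edgeR called 2 members for Ko1 and 2 for OE against WT at 5DAF and 3 for OE at 15DAF, against 0 each, and DESeq2 called 13, 2 and 2. Fits of only the groups compared called 6 for OE at 15DAF, 18 between the stages in WT and 11 in Ko1. They called 1 member higher and 1 lower in all 3 genotypes. Without 1 library the called members ranged from 9 to 42 for Ko1 against WT at 15DAF, 0 to 50 at 5DAF, 0 to 3 for OE at 5DAF and 0 to 3 at 15DAF. Between the stages they ranged from 11 to 26 in WT, 13 to 36 in Ko1 and 38 to 63 in OE. The loci chosen at 15DAF and called at 5DAF ranged from 0 to 6 for Ko1 and 0 to 2 for OE, the highest when WT 5DAF replicate 3 was left out. That library was chosen for its values at such loci, so these counts are no test. The cause was not tested. Of 353 alternatives for single named loci, members and silencing genes, 283 kept their call, 70 lost it and 0 reversed.

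With the replicate number as a block, 34 members were called for Ko1 against WT at 15DAF, and 31, 32 and 60 between the stages in WT, Ko1 and OE. The other counts under the block were 0, as without it. Same-numbered libraries did not deviate together in every pair, with correlations from −0.205 to 0.251, so the numbers were not taken as pairs.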
